A study of Mus musculus with 9 samples.

Results

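The genes described here are 9 genes of the interferon response, Stat2, Irf9, Irf1, Irf7, Ifit1, Ifit2, Ifit3, Gbp7 and Epsti1, out of 21883 protein-coding genes. They were taken by name, and a peak of open chromatin was counted at a gene when the peak's centre lay in the gene's body or, failing that, when the gene had the nearest end within 100 kb. The peaks came from ATAC-seq, which uses a transposase to cut into accessible DNA and to tag it there. The nuclei were from endothelial cells, the cells that line blood vessels, which had been sorted by flow cytometry out of the mouse lung. There were 3 infant, 3 young adult and 3 mature adult libraries, with 1 peak list for each. The ages in days, the strain, the sex and any treatment were not given in the sources used here. Nothing states that libraries of one age were made from separate animals, so each p-value measures only the spread between libraries, which may be technical.

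Interferons are secreted when a cell senses viral or other foreign nucleic acid. Type I and type III interferons act through receptor-bound kinases that phosphorylate STAT2, which joins IRF9 in the complex ISGF3. ISGF3 binds the interferon-stimulated response element (ISRE) near the start of target genes such as the Ifit genes, whereas interferon gamma acts through the gamma-activated site (GAS). Endothelial cells of the lung respond to both kinds of interferon, and the members below are ordered from effectors that bind viral RNA, through an interferon-induced GTPase and Epsti1, to the transcription factors of the pathway.

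Each list gave only where a peak lies, with no height and no read number. Sequencing depth is therefore unknown, and the lack of a peak does not show that a region was closed. Infant lists held 88856 to 94646 distinct peaks, young adult lists 67550 to 68366 and mature adult lists 59793 to 64208. Because the infant lists were longer, a gene with the same number of peaks at every age takes a larger share of an adult list. Numbers are therefore reported both unscaled and scaled to the library's total. Peaks were narrower in young adult replicate 3 and mature adult replicate 1, with mean widths of 486.6 and 495.1 bp, than in the other 7 libraries. The sort was checked on marker genes. All 8 endothelial markers, such as Pecam1 and Cdh5, had peaks, 194 to 206 in sum per infant library, 170 to 185 per young adult library and 157 to 182 per mature adult library. Of 10 leukocyte markers, Cd68, Lyz2 and Itgam had no peak in any library, and the summed number was 18 to 21, 12 to 20 and 12 to 14 in infant, young adult and mature adult libraries. The 6 epithelial markers summed to 17 to 24, 7 to 13 and 9 to 10 in the same order, with no peak at Sftpc in any library. Other markers of these lists had peaks in every library, among them Ptprc with 4 to 7, Laptm5 with 2 to 9 and Epcam with 3 to 10. All 7 markers of fibroblasts and mural cells had peaks, which summed to 60 to 63, 26 to 29 and 24 to 25 in the same order. The purity of the sort was not measured.

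The stretches of 250 bases before the start of 5 genes are shown because the age difference described next lies on 2 of them, Ifit3 and Isg15, and because the other 3 hold ISRE letters (Ifit1 and Gbp7) or only GAS letters (Irf1) and had a peak at every age. Capitals mark matches to the ISRE pattern GAAANNGAAA (Ifit3, Ifit1, Isg15 and Gbp7) or the GAS pattern TTCNNNGAA (Gbp7 and Irf1), searched on both strands. The sequences are from RefSeq on GRCm38.p6, the same build as mm10, each read 5′ to 3′ towards its gene. They lie at chr19:34583279-34583528 on the plus strand for Ifit3, chr19:34640639-34640888 on the plus strand for Ifit1, chr4:156200819-156201068 on the minus strand for Isg15, chr3:142530086-142530335 on the plus strand for Gbp7 and chr11:53769764-53770013 on the plus strand for Irf1.
Ifit3: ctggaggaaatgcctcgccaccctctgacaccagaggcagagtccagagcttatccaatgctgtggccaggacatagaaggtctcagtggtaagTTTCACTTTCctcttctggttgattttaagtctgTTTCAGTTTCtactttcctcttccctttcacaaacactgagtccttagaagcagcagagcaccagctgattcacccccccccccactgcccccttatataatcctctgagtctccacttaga
Ifit1: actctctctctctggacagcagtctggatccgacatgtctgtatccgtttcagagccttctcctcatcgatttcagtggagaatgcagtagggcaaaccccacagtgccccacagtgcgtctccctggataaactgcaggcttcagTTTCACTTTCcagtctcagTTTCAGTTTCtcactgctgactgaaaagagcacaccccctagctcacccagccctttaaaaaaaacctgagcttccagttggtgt
Isg15: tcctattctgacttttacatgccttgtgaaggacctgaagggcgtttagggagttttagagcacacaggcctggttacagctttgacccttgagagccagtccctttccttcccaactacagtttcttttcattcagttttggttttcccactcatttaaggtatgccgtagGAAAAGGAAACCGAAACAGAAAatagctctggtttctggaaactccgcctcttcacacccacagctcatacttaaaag
Gbp7: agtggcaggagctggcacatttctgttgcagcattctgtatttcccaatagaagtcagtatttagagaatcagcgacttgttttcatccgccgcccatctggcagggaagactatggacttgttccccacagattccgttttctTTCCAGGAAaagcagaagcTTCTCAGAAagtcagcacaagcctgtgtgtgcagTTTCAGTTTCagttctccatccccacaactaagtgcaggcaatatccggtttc
Irf1: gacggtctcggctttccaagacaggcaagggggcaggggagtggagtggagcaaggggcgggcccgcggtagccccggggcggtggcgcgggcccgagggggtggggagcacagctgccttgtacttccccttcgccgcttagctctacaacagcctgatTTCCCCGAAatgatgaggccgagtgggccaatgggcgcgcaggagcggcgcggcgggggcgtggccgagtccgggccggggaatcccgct
The ISRE letters occur in 1131 of 32851 such windows of 300 bases (250 before and 50 after a start), or 3.44%, and the GAS letters in 2726 windows, or 8.30%. All 9 members matched a window. Stat2, Ifit1, Ifit3 and Gbp7 held the ISRE letters, and Irf1, Ifit2 and Gbp7 the GAS letters. A match is a run of letters and does not show that a factor binds there.

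At Ifit3, which encodes a cytoplasmic protein of the Ifit family, adult libraries had a wide peak over the start of the gene that infant libraries mostly lacked. The gene spans chr19:34583119-34588982 on the plus strand, and the peak lay in the merged region chr19:34582978-34583712. It was 684, 732 and 669 bp wide in the 3 young adult libraries and 611, 578 and 664 bp in the 3 mature adult libraries, against 155 bp in infant replicate 2 and no peak in infant replicates 1 and 3. Every adult width was above every infant width. The means were 695 ± 32.9 bp in young adult and 618 ± 43.4 bp in mature adult libraries, against 51.7 ± 89.5 bp in infant libraries (SD, n = 3 each, with an absent peak as 0). Fewer cells with the region open and less opening per cell cannot be told apart in such lists. The ISRE match 122 bases before the start was covered by 6 of 6 adult lists and by 0 of 3 infant lists, and the match at 156 bases by 6 adult lists and 1 infant list. Windows with a peak in all 6 adult and at most 1 infant library were 22 of 32851, or 0.067%.

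With 1 peak at most in any library, Ifit3 averaged under 1 peak over the 9 libraries and did not enter the test of peak numbers. When genes under that limit were let in, scaled peak numbers had a log2 change of 1.20 in young adult against infant libraries (limma adjusted p = 0.0364) and 1.29 in mature adult against infant libraries (limma adjusted p = 0.0235). Ifit1, with the same numbers of peaks, 1 in each adult library and in infant replicate 2 and 0 in the other infant libraries, had the same values. With such genes let in, 3735 and 4330 of 17338 genes were called higher in these comparisons. Unscaled numbers were not tested without the limit. Scaling alone raised Irf9, with 1 peak in every library, by a log2 change of 0.28 and 0.36. Both comparisons use the same 3 infant libraries.

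The Ifit1 peak so counted lay inside the gene, which encodes a sensor of viral RNA ends and spans chr19:34640889-34650009 on the plus strand. Its region, chr19:34643502-34643910, was 326, 326 and 378 bp wide in young adult and 263, 339 and 283 bp in mature adult libraries, against 0, 297 and 0 bp in infant libraries. The infant library with the peak thus lay within the adult range. The start of Ifit1 was different: it had a peak in all 9 libraries, 461 to 891 bp wide, which covered both of its ISRE matches at every age. The peak there was assigned to the neighbour Ifit1bl2 in 7 libraries and to Ifit1bl1 in 2, since the bodies of these genes reach the start of Ifit1, and is not among the peaks counted at Ifit1. Ifit1bl2 starts from the same window on the other strand, so the peak cannot be given to one of these genes alone.

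Ifit2, another protein of the family that binds viral RNA, lies at chr19:34550550-34576534 on the plus strand. Its start region, chr19:34550409-34551196, was 772, 723 and 696 bp wide in infant libraries, 686, 683 and 684 bp in young adult libraries and 682, 783 and 685 bp in mature adult libraries, so that the ages overlapped. A second region 2.4 kb inside the gene, chr19:34552891-34554066, was wider in adults. Its summed peak width was 1156, 1155 and 877 bp in young adult and 836, 986 and 1160 bp in mature adult libraries, against 617, 530 and 831 bp in infant libraries. Every adult library was above the infant range, though mature adult replicate 1 was only just above it. The share of all regions with adult values so separated was not counted. Widths were centred on each library's median over the regions that had a peak in all 9 libraries. The log2 change was then 0.90 ± 0.166 in young adult against infant libraries (SE, limma adjusted p = 0.0200) and 0.88 ± 0.166 in mature adult against infant libraries (limma adjusted p = 0.0125). Without centring the adjusted p was 0.0732 and 0.0653 in these comparisons, and with only the widest peak of the region per library it was 0.163 and 0.291. The young adult call was also lost without infant replicate 1 or 2 or young adult replicate 1 or 2 (adjusted p = 0.0575 to 0.0720), and the mature adult call was kept without any 1 library.

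**Figure D1:**
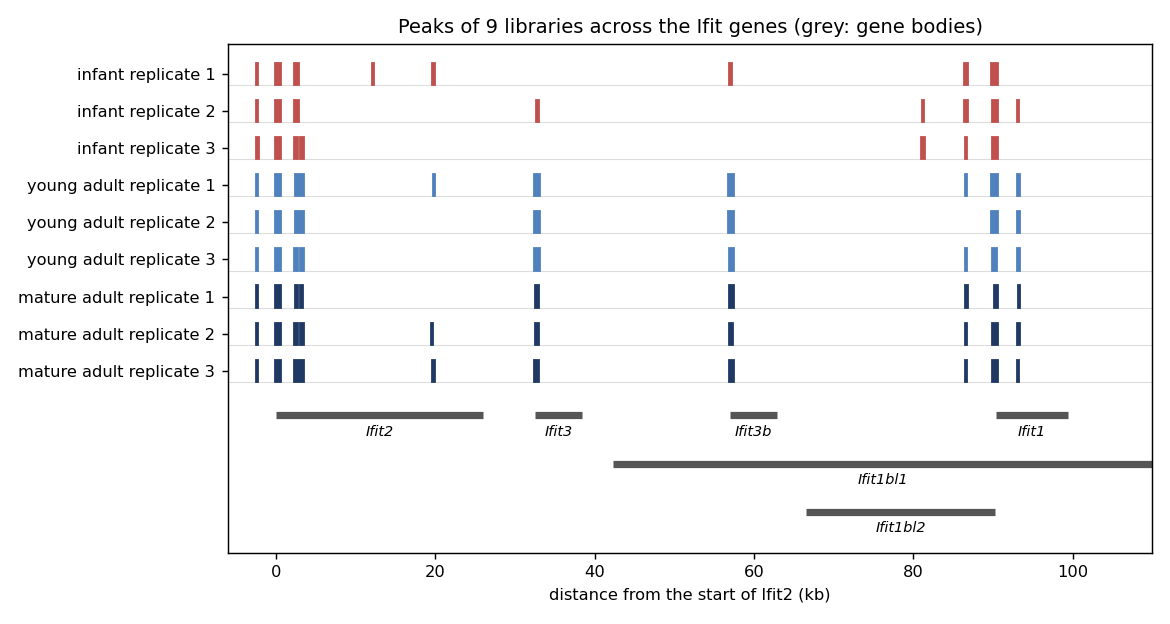
Peaks of the 9 libraries (rows, coloured by age) along the Ifit genes against distance from the start of Ifit2 in kb, with gene bodies in grey. The start of Ifit3 has a peak in all 6 adult rows and a 155 bp peak in infant replicate 2 alone among infant rows, while the starts of Ifit2 and Ifit1 have a peak in all 9.

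Across the whole locus with 5 kb on each side, the ages differed more in covered bases than in number of peaks. There were 8, 8 and 7 peaks in infant, 9, 7 and 9 in young adult and 9, 10 and 9 in mature adult libraries. They covered 3837, 3407 and 2998 bp in infant, 5025, 4791 and 4377 bp in young adult and 4001, 4718 and 4708 bp in mature adult libraries. Every adult library was above every infant library in covered bases, most narrowly mature adult replicate 1 with 4001 bp against 3837 bp in infant replicate 1. These totals include the start peaks of Ifit3 and Ifit3b and the intragenic region of Ifit2, so they are not a separate result. How many other loci separate the ages in this way was not counted. The paralogue Ifit3b, at the same locus, had a start peak of 757, 755 and 711 bp in young adult and 567, 621 and 581 bp in mature adult libraries, against 403, 0 and 0 bp in infant libraries. The start windows of Ifit3 and Ifit3b are identical at 258 of 340 aligned positions (75.9%), and how reads that fit both were placed is not given in the sources used here. Peaks at Ifit3 and Ifit3b are therefore uncertain as separate measurements.

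Ifit3 was 1 of the 22 gene starts that had a peak in all 6 adult and at most 1 infant library, a class chosen after its values had been seen. The ISRE letters stood in 7 of these 22 windows (31.8%), those of Ifi206, Isg15, Oas1a, Tmem140, Gm12250, Ifit3 and Ifit3b, against 3.44% of all windows. Among the 655 windows with a peak in all 3 infant and no adult library (1.99% of windows), 21 held them (3.21%). Isg15 encodes a ubiquitin-like protein that is joined to other proteins in the interferon response, and its start region was 259, 238 and 277 bp wide in young adult and 232, 257 and 245 bp in mature adult libraries, with no peak in any infant library. Oas1a, a synthetase that is switched on by double-stranded RNA, is also in this class. When an overlap of at least 150 bp was asked for, 6 of 24 windows held the letters, and without both narrow libraries, replicate 3 of the young adults and replicate 1 of the mature adults, it was 8 of 35. Without infant replicate 1 or infant replicate 2 alone the class grew to 41 and 42 windows, of which 7 (17.1%) and 8 (19.1%) held the letters. With the same number of peaks per library, the widest 59793, the class grew to 106 windows, of which 12 (11.3%) held the letters. Ifit3 was in the class under each of these settings. Leaving out libraries can only keep or add windows, so it could not remove Ifit3 and its larger classes follow from the looser rule. Nor could the 150 bp overlap remove Ifit3, since every adult peak there spanned the whole window. These settings are therefore no support for the Ifit3 result. The summed peaks of the 10 leukocyte markers were 12 to 20 in young adult and 12 to 14 in mature adult libraries, against 18 to 21 in infant libraries. On scaled numbers the median log2 change of the 5 that could be tested was 0.39 in young adult and 0.30 in mature adult against infant libraries, and on unscaled numbers 0.00 and −0.19. The part of leukocytes in the Ifit3 result was not tested.

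**Figure D2:**
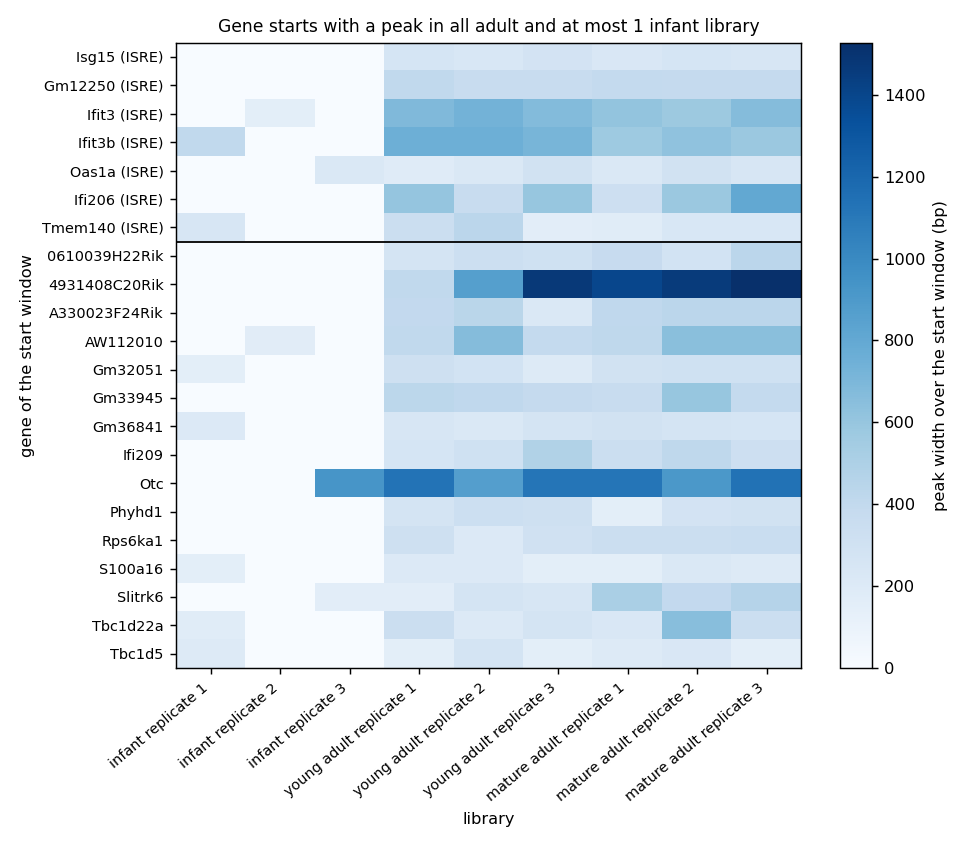
Peak width in bp (colour) over the start window of the 22 genes (rows) with a peak in all 6 adult and at most 1 infant library, in each of the 9 libraries (columns). Genes above the line, 7 of 22 with Ifit3 among them, hold the ISRE letters; white marks no peak.

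Gbp7, a guanylate-binding GTPase that interferon induces and that acts against intracellular microbes, gained a peak upstream of its start in adults. The gene spans chr3:142530336-142550151 on the plus strand. It had 3, 3 and 2 peaks in young adult and 3 in each mature adult library, against 2 in each infant library. Every mature adult library was thus above every infant library, which held for 1.51% of the 21883 genes. Scaled numbers rose by a log2 change of 0.93 in mature adult against infant libraries (limma adjusted p = 0.000808) and 0.66 in young adult against infant libraries (limma adjusted p = 0.0059). Unscaled, the mature adult change was 0.49 (limma adjusted p = 0.0292) and the young adult change 0.32 (limma adjusted p = 0.132). The unscaled mature adult call was lost without any 1 of the 3 infant or 3 mature adult libraries (adjusted p = 0.0702 to 0.0836), while the scaled one was kept in 18 of 18 alternatives. The scaled young adult call was kept in 15 of 18 and lost on unscaled numbers, with rows as deposited and with an equal number of widest peaks (adjusted p up to 0.184).

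The added Gbp7 peak lay 2.9 kb before the start, in the region chr3:142526908-142527876. It was 508, 295 and 0 bp wide in young adult and 347, 844 and 953 bp in mature adult libraries, and no infant library had a peak there. The start region itself, chr3:142529795-142531045, was open at all ages, at 1041, 979 and 936 bp in young adult and 1003, 1001 and 856 bp in mature adult libraries, against 987, 1184 and 1248 bp in infant libraries. Peaks of all 9 libraries covered the ISRE match and both GAS matches printed above. A further region, chr3:142546707-142547437 inside the gene, was 667, 685 and 680 bp wide in young adult and 546, 670 and 547 bp in mature adult libraries, against 550, 555 and 495 bp in infant libraries. All young adult values lay above the infant ones, and mature adult and infant values overlapped. The share of all regions with young adult values so separated was not counted. The centred log2 change of this region was 0.55 in young adult against infant libraries (limma adjusted p = 0.0259) and 0.41 in mature adult against infant libraries (limma adjusted p = 0.0330). Without centring neither comparison passed, with adjusted p of 0.0804 and 0.345. The young adult call was also lost without any 1 infant or young adult library (adjusted p = 0.0586 to 0.0814), and the mature adult call without any 1 infant library or mature adult replicate 1 or 2 (0.0734 to 0.0940). In all, 5 of 14 alternatives kept the young adult call and 6 of 14 the mature adult call.

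Epsti1 had the largest fitted change of the 7 tested members, and in the opposite direction. It is named for its induction in epithelial cells by contact with stroma and is also induced by interferon, and it spans chr14:77904239-78002656 on the plus strand. Young adult libraries had 0 peaks and mature adult libraries 0, 0 and 1, against 6, 5 and 6 in infant libraries. Every infant library was above every adult library, as at 18.4% of all genes. Scaled numbers fell, with a log2 change of −3.34 ± 0.435 in young adult against infant libraries (SE, limma adjusted p = 0.000738) and −2.76 in mature adult against infant libraries (limma adjusted p = 0.00149). Unscaled, the log2 change was −3.62 (limma adjusted p = 0.00205) and −3.09 (limma adjusted p = 0.00281). With groups at or near 0 peaks these fitted changes depend on the added 0.5. Epsti1 also met the limit of a mean of 1 peak only through its infant libraries; with no such limit the limma adjusted p was 0.00149 and 0.00173 on scaled numbers. All 18 alternatives of the scaled result and all 10 of the unscaled result stayed under 0.05 in both comparisons.

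The Epsti1 peaks all lay inside the gene and none at its start in any library. They formed 7 regions, of which 4 were present in all 3 infant and no adult library, and these 4 were the only such regions among the 36 of all members. In the whole set, 9.7% of 126907 merged regions were of that kind. The widest of the 4, chr14:77975256-77976147, was 863, 710 and 768 bp wide in infant libraries. Another of the 7, chr14:77971136-77971829, was 542, 531 and 693 bp wide in infant libraries and 150 bp in mature adult replicate 3, the one adult peak at the gene. The other regions present in all 3 infant lists, chr14:77932192-77932572, chr14:77933178-77933511 and chr14:77976307-77976647, ran from 263 to 370 bp. Of the 36 regions of all members, 17 had a peak in all 9 libraries, 10 of these 17 at Irf1 and none at Epsti1, beside 32.4% of all regions. With a peak in all 6 adult and no infant library there were 0 of 36, beside 0.686% of all regions.

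**Figure D3:**
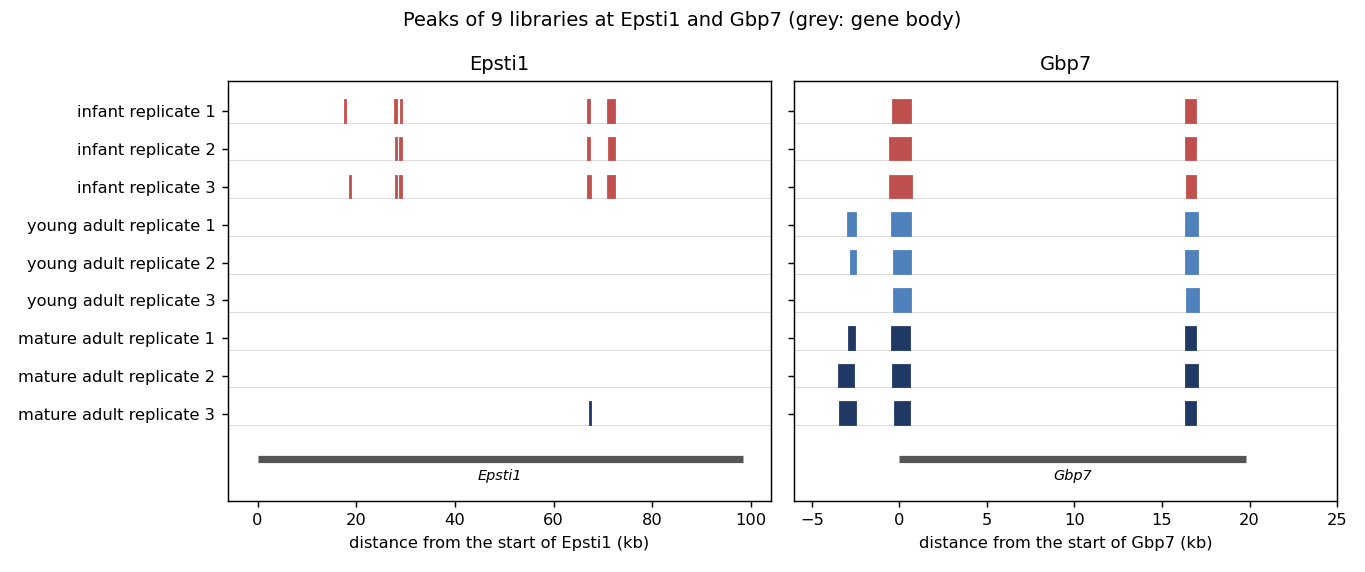
Peaks of the 9 libraries (rows, coloured by age) against distance from the start of Epsti1 (left) and Gbp7 (right) in kb, with the gene body in grey. Epsti1 has 5 or 6 intragenic peaks in each infant row and 1 in all adult rows together, and Gbp7 has a peak 2.9 kb before its start in 5 of 6 adult rows and in no infant row.

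Markers of fibroblasts and mural cells had fewer peaks in the same libraries. The 7 markers, all of them with peaks, summed to 26 to 29 peaks in young adult and 24 to 25 in mature adult libraries, against 60 to 63 in infant libraries. Of them, Col1a2, Pdgfrb, Cspg4 and Des fell in both comparisons with infant libraries on both scales (limma adjusted p under 0.05). The part of such cells in the Epsti1 result was not tested. The 3 genes whose scaled numbers followed Epsti1 most closely over the 9 libraries were Dera, Tbx18 and Trap1a (Pearson r = 0.994 each). Those nearest to Gbp7 were Faap100 and Idnk, with the same numbers as Gbp7 in all 9 libraries, and H3c6 (Pearson r = 0.996). These correlations describe libraries that share their totals, over genes with few peaks.

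The transcription factors of the pathway had a peak at their starts at every age. In all, 7 of the 9 members had one in all 9 libraries, as 36.8% of all start windows did. Stat2, part of the ISGF3 complex, lies at chr10:128270498-128292853 on the plus strand, and its start had a peak in all 9 libraries, 778 to 1024 bp wide. That peak covered the match TTTCAGTTTC, 222 bases before the start, in every library, and was assigned to the neighbour Apof in 8 of 9. The peaks counted at Stat2 itself were 1, 3 and 1 in infant, 2, 2 and 2 in young adult and 1, 2 and 2 in mature adult libraries. Apart from the start peak of infant replicate 2, these lay in 2 intragenic regions of different age pattern. The region chr10:128282841-128283232 was 376, 285 and 278 bp wide in young adult and 286, 355 and 375 bp in mature adult libraries, against 0, 164 and 0 bp in infant libraries. The region chr10:128283906-128284393 was 264, 385 and 241 bp in young adult and 0, 264 and 267 bp in mature adult libraries, against 470, 457 and 460 bp in infant libraries. In neither region did adult and infant values overlap, and the share of all regions for which this holds was not counted. Neither entered the width test, which took regions with a peak in all 9 libraries. Stat2 did not pass the test of scaled numbers (limma adjusted p = 0.197 and 0.293 for young adult and mature adult against infant).

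Irf9, the DNA-binding partner of STAT2, had exactly 1 peak in each of the 9 libraries, over its start in chr14:55603589-55604656. The gene spans chr14:55603985-55610030 on the plus strand, and the peak was 1042, 930 and 873 bp wide in young adult and 850, 922 and 921 bp in mature adult libraries, against 1030, 921 and 1038 bp in infant libraries. Scaled to the library total, this constant number gave a log2 change of 0.28 in young adult against infant libraries (limma adjusted p = 0.000738) and 0.36 in mature adult against infant libraries (limma adjusted p = 0.000135). Unscaled the change was 0 and the limma adjusted p was 1. The scaled call thus reflects a larger share of a shorter list at an unchanged number.

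Irf1, an interferon-induced activator of many of the same genes, had the most peaks of the 9 members. The gene spans chr11:53770014-53778374 on the plus strand and had 14, 15 and 12 peaks in infant, 16, 17 and 14 in young adult and 14, 15 and 15 in mature adult libraries, so that the ages overlapped. These lay in 15 regions that had their centres between −7.9 and 48.3 kb from the start, 10 of them with a peak in all 9 libraries. The start region, chr11:53769504-53770831, was 1117, 1087 and 986 bp wide in young adult and 894, 1189 and 1152 bp in mature adult libraries, against 1217, 1143 and 1147 bp in infant libraries, and covered the GAS match printed above at every age. Scaled numbers had a log2 change of 0.60 in young adult against infant libraries (limma adjusted p = 0.00155) and 0.63 in mature adult against infant libraries (limma adjusted p = 0.000893). Unscaled the adjusted p was 0.247 and 0.507. Among the 5 regions without a peak in every library, chr11:53785441-53785867 was 344, 156 and 0 bp in young adult and 0, 329 and 150 bp in mature adult libraries, against 426, 412 and 415 bp in infant libraries. The others differed in direction. The region chr11:53777693-53778126 had a peak in 0 infant, 1 young adult and 2 mature adult libraries. In the same order the libraries were 1, 3 and 2 at chr11:53779635-53780141, 1, 3 and 3 at chr11:53813038-53813584, and 2, 2 and 0 at chr11:53803120-53803365.

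Irf7, the factor that amplifies type I interferon production, lies on the minus strand at chr7:141263183-141266499. It had 2, 2 and 3 peaks in infant, 2, 3 and 2 in young adult and 2 in each mature adult library, all in 1 merged region over the start and body, chr7:141265094-141266795. Scaled numbers did not pass the test (limma adjusted p = 0.194 and 0.252 for young adult and mature adult against infant). The summed width of the region was 1352, 1400 and 1079 bp in young adult and 1197, 1101 and 1037 bp in mature adult libraries, against 1567, 1478 and 1429 bp in infant libraries. No adult library reached the infant range, and the share of all regions for which this holds was not counted. The width as measured fell in mature adult against infant libraries by 0.43 on the log2 scale (limma adjusted p = 0.0275). Of the 41144 regions with a peak in all 9 libraries, 16.4% were called narrower in this way, and their median log2 change was −0.19 over all of them. After centring on the library's median over these regions, the Irf7 change was −0.15 (limma adjusted p = 0.282). With only the widest peak of the region per library, centred, it was 0.29 (limma adjusted p = 0.200). The peak over the start alone was 1081, 872 and 855 bp wide in young adult and 1045, 878 and 766 bp in mature adult libraries. In infant libraries it was 921, 852 and 903 bp, so that the ages overlapped at the start.

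**Figure D4:**
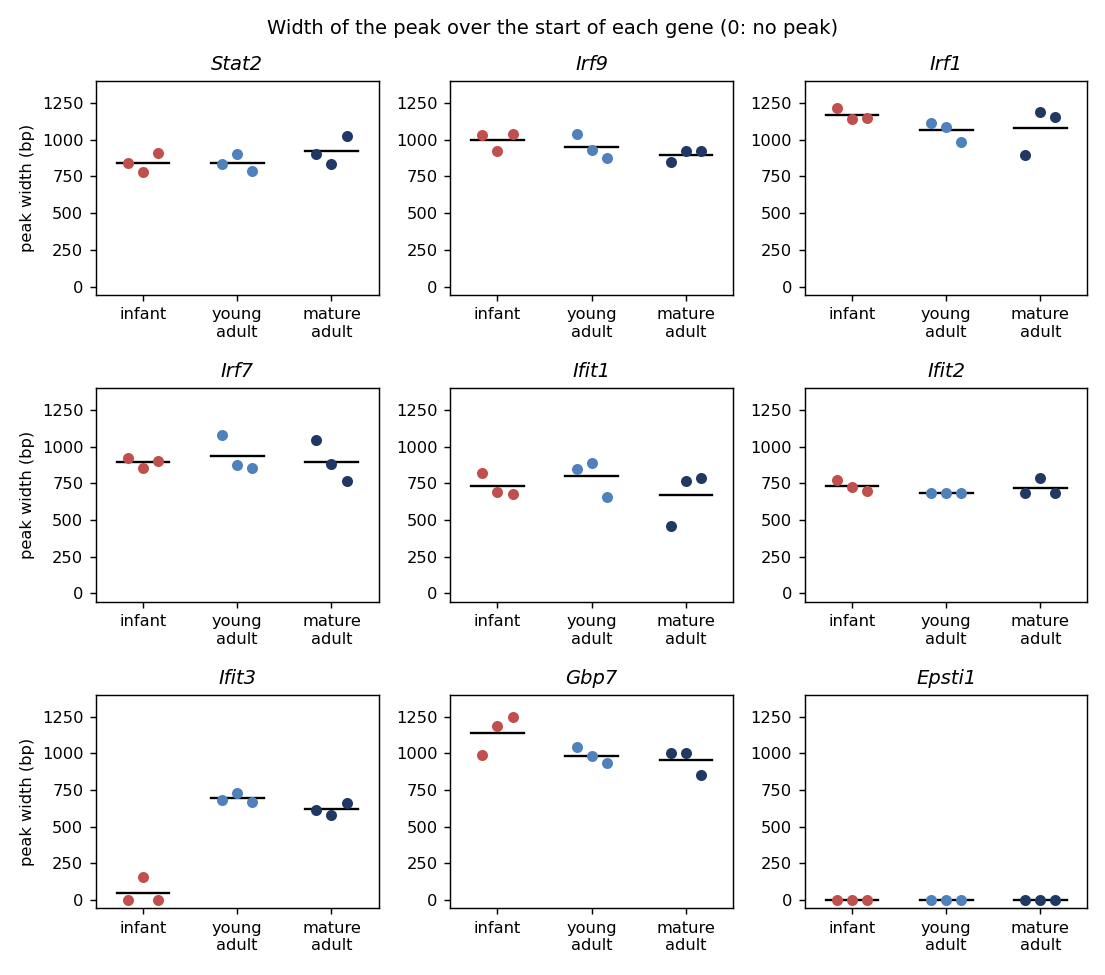
Width in bp of the peak over the start of each member in every library, grouped by age, with the mean as a line and 0 where there was no peak. Stat2, Irf9, Irf1, Irf7, Ifit1, Ifit2 and Gbp7 have a peak in all 9 libraries, Ifit3 has 578 to 732 bp in adults against 155 bp in 1 infant library, and Epsti1 has none.

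As a set, the members had similar unscaled total numbers of peaks at the 3 ages. They summed to 31, 33 and 29 peaks in infant, 30, 31 and 27 in young adult and 27, 30 and 30 in mature adult libraries. Epsti1 gave 6, 5 and 6 of the infant peaks and at most 1 in any adult library. As a share of the library's peaks, the members held 0.03264 to 0.03665% in infant libraries. The share was 0.03997 to 0.04534% in young adult and 0.04516 to 0.04754% in mature adult libraries, whose lists were shorter. Of the 9, 7 averaged at least 1 peak and were tested. In young adult against infant libraries, scaled numbers were higher at Irf1, Irf9 and Gbp7, 3 of 7, and lower at Epsti1, 1 of 7, where the same calls were made for 25.6% and 9.34% of 14448 genes. In mature adult against infant libraries they were higher at Irf1, Irf9, Ifit2 and Gbp7, 4 of 7, and lower at Epsti1, against 30% and 13.8% of genes. Ifit2 was called on scaled numbers only (log2 change 0.61, limma adjusted p = 0.0261, unscaled 0.739), and the call was lost without infant replicate 2 or 3 or mature adult replicate 1 or 2 (0.0538 to 0.0784). On unscaled numbers Epsti1 alone was called in young adult against infant libraries, and Epsti1 and Gbp7 in mature adult against infant libraries. On unscaled numbers 18.6% and 30.8% of all genes were called in these comparisons, 17.5% and 29.4% lower in adults and 1.13% and 1.44% higher. Between mature adult and young adult libraries limma called 0 of 7 members on either scale, and 0 had an unadjusted p under 0.05, where 0.844% of genes were called on scaled and 0.927% on unscaled numbers.

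**Figure D5:**
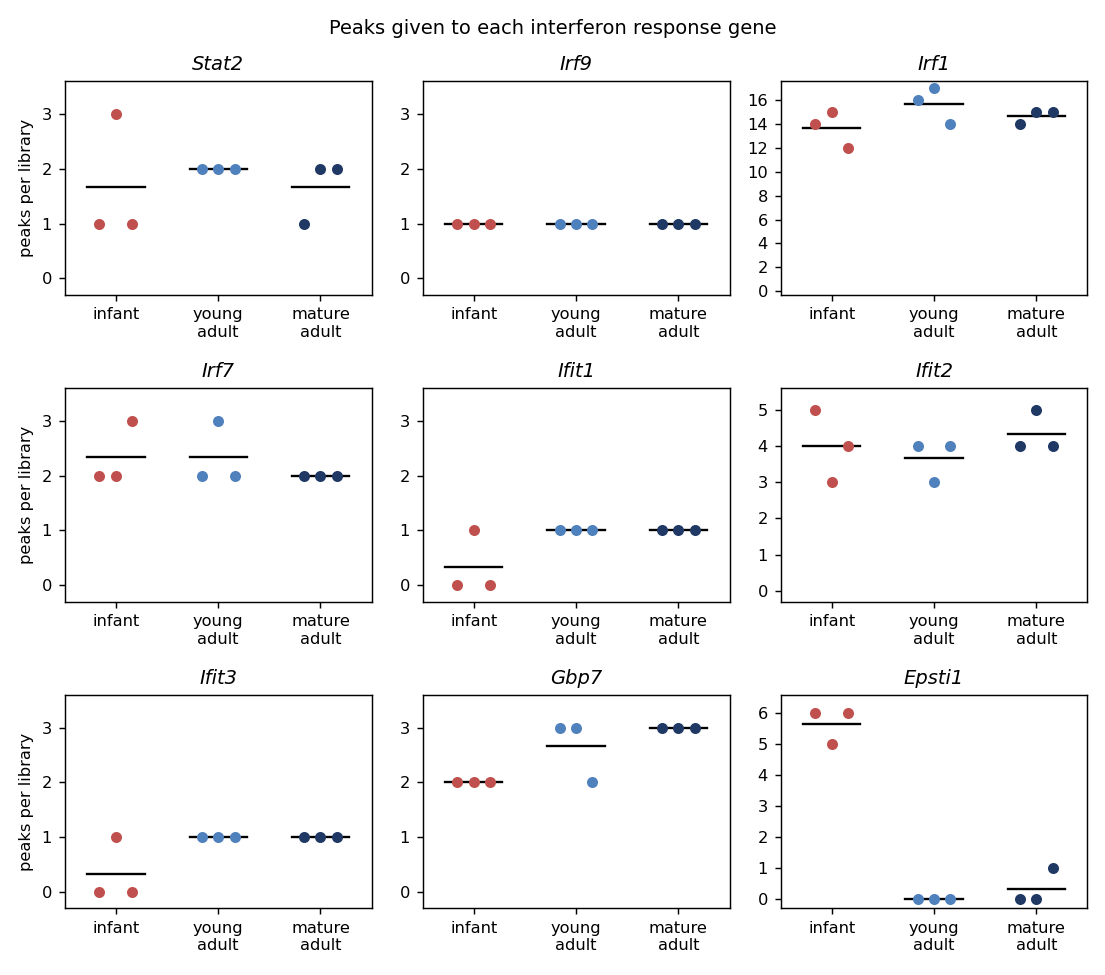
Number of peaks given to each member in every library, grouped by age, with the mean as a line. Epsti1 has 5 or 6 peaks in infant libraries against 0 or 1 in adult libraries, Gbp7 has 2 against 3 in mature adult libraries, and Irf9 has 1 in all 9.

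Width could be tested at 19 regions of the members, among them the starts of Stat2 and Ifit1 whose peaks were assigned to neighbours. After centring, 2 of 19 were wider in young adult than in infant libraries, where 3.1% of all 41144 regions were, and 7 of 19 were wider in mature adult than in infant libraries, against 14% of all regions. The 7 were the intragenic regions of Ifit2 and Gbp7, the upstream region of Ifit2, the start of Stat2 (log2 change 0.40, limma adjusted p = 0.0291, lost without infant replicate 1 or 2 or mature adult replicate 1 or 3) and 3 regions around Irf1. Of the 7, 6 lost the call when certain single libraries were left out, and the intragenic region of Ifit2 kept it without each of the 9. None was narrower in either comparison by limma, with 0 and 1 at an unadjusted p under 0.05. Mature adult and young adult libraries did not differ at any of the 19 by limma, with 0 at an unadjusted p under 0.05 and 0.126% of all regions called. Without centring limma called 0 of the 19 wider in young adult or in mature adult against infant libraries, with 2 and 1 at an unadjusted p under 0.05, where 1.12% and 1.92% of all regions were called wider. The region of Irf7 described above and chr11:53808882-53809749 downstream of Irf1, 2 of 19, were then narrower in mature adult than in infant libraries, against 16.4% of all regions.

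Other genes of the pathway differed between ages mainly in scaled numbers. Of 102 genes in 7 lists of ligands, receptors and kinases, STATs and IRFs, sensors, effectors, guanylate-binding proteins and related GTPases, and inhibitors, 88 were tested. In young adult against infant libraries 26 were higher and 2 lower on scaled numbers, and 0 were higher and 8 lower on unscaled numbers by limma, with 3 higher at an unadjusted p under 0.05. Over all genes 25.6% were higher and 9.34% lower on scaled numbers, and 1.13% higher and 17.5% lower on unscaled numbers. In mature adult against infant libraries 42 of the 88 were higher and 4 lower on scaled numbers, and 1 was higher and 10 lower on unscaled ones, beside 30% and 13.8%, and 1.44% and 29.4%, of all genes. Of the genes higher on scaled numbers, 12 in each comparison had a peak number that was equal in all 9 libraries, so that their share alone differed. The median log2 change of the 88 genes was 0.28 and 0.36 in these comparisons on scaled numbers, beside 0.13 and 0.14 over all 14448 genes, and 0.00 and −0.10 on unscaled numbers, beside −0.25 and −0.31. Between mature adult and young adult libraries limma called 0 of 88 on either scale, with 6 and 7 at an unadjusted p under 0.05.

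The genes called in the same direction on both scales were few. Ifnlr1, the receptor chain for type III interferon, fell to 3, 3 and 2 peaks in young adult and 2, 1 and 2 in mature adult libraries, against 6, 8 and 6 in infant libraries (limma adjusted p = 0.0494 and 0.00573 on scaled numbers). Tyk2, a kinase of the type I receptor, had 2 peaks in every adult library, against 4, 5 and 4 in infant libraries (limma adjusted p = 0.00205 and 0.00504). Adult numbers of both genes lay below every infant number, as at 18.4% of all genes. In mature adult against infant libraries Tlr7, a sensor of single-stranded RNA, fell to 0, 0 and 1 peaks, against 3 in each infant library (limma adjusted p = 0.00817). Ifne, the type I interferon of epithelia, fell to 1 peak in each mature adult library, against 4, 3 and 4 in infant libraries (limma adjusted p = 0.00544). Ifit1bl1, an Ifit1-like gene whose body spans several of its neighbours, was the only one called higher, with 2 peaks in each mature adult library, against 1 in each infant library (limma adjusted p = 0.00239). In mature adult replicates 1 and 2 the added peak was the one over the start of Ifit1, which all 9 libraries had and which was assigned to Ifit1bl2 in the other 7. In mature adult replicate 3 it was a peak of 150 bp. The call therefore shows no gain of open regions in those 2 libraries.

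By list, the effectors had 13 of 33 tested genes higher in young adult and 18 higher in mature adult against infant libraries on scaled numbers, beside 25.6% and 30% of all genes. The same 8 of them in both comparisons, among them Bst2, Ifitm1 and Ifitm2, had 1 unchanging number of peaks in all 9 libraries. The guanylate-binding proteins and related GTPases had 3 and 7 of 15 higher. Receptors and kinases had 3 and 5 of 9 higher and 2 lower in each comparison. The ligands had 1 and 2 of 6 higher, the other STATs and IRFs 1 and 3 of 8, the sensors and adaptors 2 and 3 of 11, and the inhibitors 3 and 4 of 8. The only genes lower were those named above as fewer in adults. On unscaled numbers no listed gene was called higher other than Ifit1bl1, whose number changed in 2 of 3 mature adult libraries only through the assignment of the peak at Ifit1. Presence alone set Isg15 apart, as described above, with no infant and every adult library. Ifnl2, a type III interferon, had 1 peak in each infant library, 1, 0 and 0 in young adult libraries and none in mature adult libraries, and Ifi44l, an interferon-induced gene, had 2, 2 and 1 peaks in infant libraries, none in young adult libraries and 1, 0 and 1 in mature adult libraries.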

How the data were processed

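ATAC-seq peaks were taken from 1 deposited list per library. Per the file headers the only columns are the chromosome, the start and the end of an interval. Start and end are positions in base pairs on mm10 as deposited by the authors, and it is not stated whether starts count from 0 or 1, so positions may be off by 1 bp. Per the submitters' processing notes cutadapt, Bowtie2 and Picard were used, without versions. No peak caller, threshold or treatment of multiply mapping reads is given in the sources used here. Between 31% and 38.9% of intervals of a list were repeated, and each was counted 1 time.

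The 9 members, the pathway lists and the marker lists were chosen with earlier results of these data known. Gene bodies and start windows came from RefSeq tables of GRCm38.p6. Of the listed pathway symbols Rigi (present under its older symbol), Mx1, Mx2 and Gbp11 had no row. Peak numbers per gene were tested as log2(number + 0.5), scaled to the library total, with limma 3.58.1 in R 4.3.3 (mean-variance trend, 1 fit over the 9 libraries). Genes needed a mean of 1 peak or more, which 14448 met. Summed widths of 41144 regions with a peak in all 9 libraries were tested likewise as log2 bp, centred on the library's median over these regions. The Benjamini-Hochberg adjustment ran over all features, with a threshold of 0.05, and the fit was tested on simulated data. Peaks sharing 1 bp or more, in whichever library, were joined into 126907 regions. Named genes were the members, the pathway genes called in the same direction on scaled and unscaled numbers (at most 4 per list and direction), listed genes absent at 1 age and present in every library of another, and the 3 genes most correlated with each member called on both scales. The genes of the start class with ISRE letters were named after their values had been seen. Unscaled numbers, other pseudocounts and filters, the rows as deposited, an equal number of widest peaks, a 10 kb limit, every overlapping gene body, a replicate block and leaving out libraries were tried as alternatives. All other steps ran in Python 3.11.15 (numpy 2.4.6, pandas 2.3.3, Biopython 1.88, matplotlib 3.10.9).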

Additional observations from a re-analysis of the deposited data

How the results depend on the processing

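Of 378 member values on scaled numbers, 354 stayed on the same side of the threshold, 20 lost the call and 4 gained it. Of 210 on unscaled numbers, 202 stayed on the same side, 7 lost the call and 1 gained it. Of 798 region widths, 716 stayed on the same side, 74 lost the call and 8 gained it. No value called in either setting reversed its direction. Values called in neither were not compared by direction, and some changed sign. For Ifit2 in young adult against infant libraries the log2 change was 0.276 scaled and −0.0965 unscaled. Counts over all genes moved more. For young adult against infant, 5051 genes became 2691 unscaled, 1393 with an equal number of widest peaks and 2354 with rows as deposited. For mature adult against infant, 6337 became 2268 with the widest peaks. For mature adult against young adult, 122 became 572 without both narrow libraries (replicate 3 of the young adults, replicate 1 of the mature adults), and from 98 to 424 leaving out 1 library. Region counts by width, leaving out 1 library, ran from 848 to 2440 for young adult against infant (2137 with all), from 2411 to 10567 for mature adult against infant (8553) and from 7 to 270 for mature adult against young adult (52), the last also 89 with the widest peak per region and 275 without both narrow libraries. The cause was not tested. Same-numbered libraries did not all deviate together (correlations −0.167 to 0.166), so numbers were not taken as pairs. A replicate block gave 65 genes by number for mature adult against young adult, and by width 1281, 5183 and 6 regions for the 3 comparisons in the order above. Without infant replicate 2, Stat2 passed in both adult comparisons with infant libraries (limma adjusted p = 0.0114 and 0.0202).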
